A study of Coregonus migratorius and Coregonus peled with 8 samples.

Results

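Of 2184 listed genes, 66 stood higher in larvae from nature than in every aquaculture-reared library of both whitefishes. A gene was a member if its lower value in the nature libraries, that of Baikal omul or that of peled, lay at least 1 above its highest value in the 6 aquaculture-reared libraries, on the log2(value + 1) scale. This gap corresponds to about 2-fold. The members were thus chosen from measured values, and their excess in nature is a description without a test. All 66 meet the label by construction, and 65 of them had a mean value of at least 1 over the 6 aquaculture-reared libraries and entered the tests described further on. The exception was TRINITY_DN53297_c1_g1, which stood at 3.55 in nature omul and 12.5 in nature peled and at no more than 1.16 in aquaculture.

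The study sequenced whole-larva poly(A) RNA of Coregonus migratorius, the Baikal omul, and of Coregonus peled, in 8 libraries of 1 per group. RNA of 12 to 16 larvae was pooled for each. The nature groups are untreated larvae taken from hatchery ponds by the Belaya River. The aquaculture-reared groups of each species had been in tanks for 1.5 months at 9 to 12 °C and were an unheated control, an acute group warmed to 21 °C for 1 h and a chronic group warmed to 21 °C for 24 h, 3 times a week. No group carries a genetic change. Age, diet and temperature of the pond larvae have no label, so that they cannot be told apart from origin, and with whole larvae a different share of a tissue cannot be told apart from a different level per cell.

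Whitefishes are coldwater members of the salmon family, whose ancestor doubled its genome, so that many genes exist as similar copies. The identifiers are those of Trinity, a program that builds transcripts from the reads themselves. In such an identifier the part up to the letter c and its number marks a component, a group of overlapping sequences, and the g number a gene within it. Genes of a component can be copies, alleles or fragments of each other, and the reads may have been split between them. The files do not pair identifiers with gene names, so no function or tissue is assigned to any member, and tissue markers could not be read. Values are a normalized signal of unstated unit and depth is unknown. Whether they are scaled for gene length is not stated, so levels of different genes are not compared as amounts of RNA.

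The libraries differ in their totals, and this bears on a set chosen to be high in nature. The summed value of the listed genes ran from 79169 in acute peled to 228369 in nature peled. For each gene, nature minus the mean of the own aquaculture-reared libraries was taken on the log2 scale. The median of this shift over all listed genes was 0.24 in omul and 0.31 in peled, against 1.73 and 3.08 for the members. With libraries scaled to a common median these shifts of all listed genes became -0.01 and 0.18, and those of the members 1.47 and 2.93. With libraries scaled to a common summed value they became -0.11 and -0.80 for all listed genes, and 1.37 and 1.83 for the members. All 66 members stayed above every aquaculture-reared library under the first scaling and 64 under the second, but 29 and 15 kept the full gap of 1. The opposite rule, at least 1 lower in both nature libraries than in all others, held for 88 genes as deposited. The members thus made up 42.9% of the genes that separated nature from aquaculture in either direction, 17.9% after scaling to a common median and 8.57% after scaling to a common sum.

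**Figure D1:**
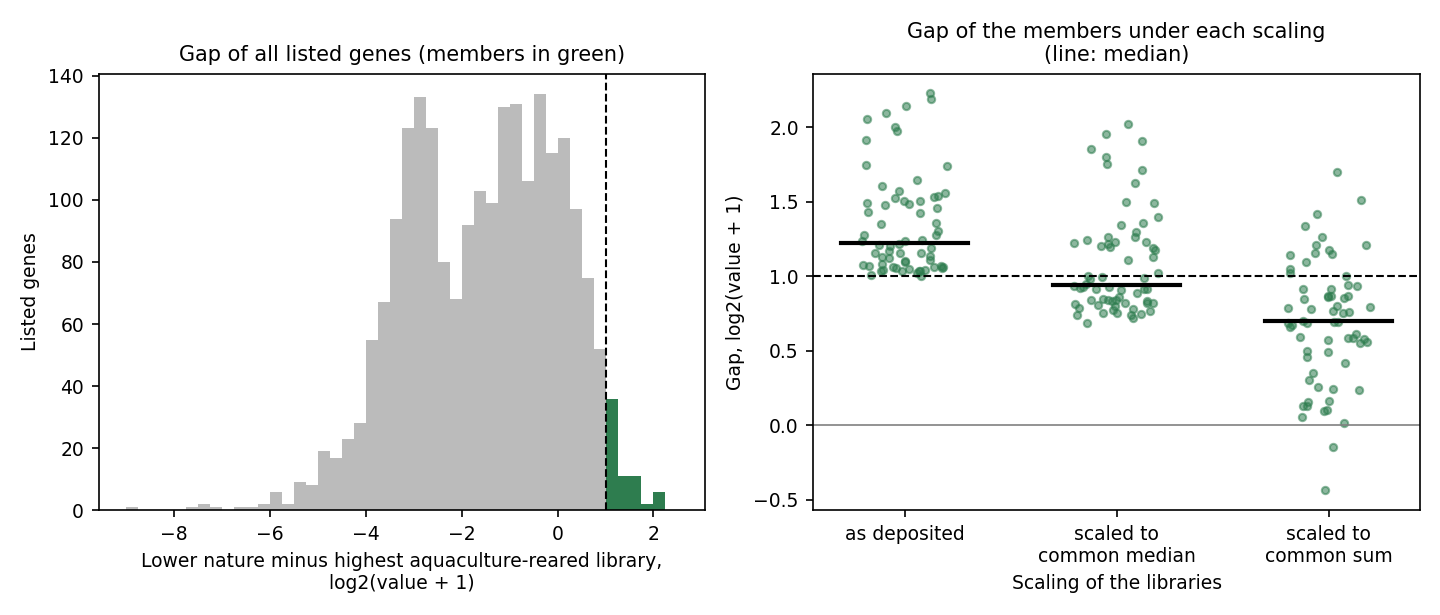
The left panel counts listed genes by their gap, the lower nature minus the highest aquaculture-reared value on the log2(value + 1) scale, with the 66 members in green to the right of the dashed line at 1. The right panel shows each member's gap as deposited and after 2 scalings, with the median falling from 1.23 to 0.94 and 0.70.

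The set has no break at its edge. Altogether 344 genes had a gap above 0 and below 1, and 19 of the 66 members had a gap of at least 1.5. The members just inside were TRINITY_DN7361_c0_g1, with a gap of 1.003, and TRINITY_DN85458_c0_g1, with 1.01. The genes just outside were TRINITY_DN31638_c0_g1, with 0.995, and TRINITY_DN19852_c1_g2, with 0.986. TRINITY_DN31638_c0_g1 stood at 37.8 in nature omul and 34.2 in nature peled. It was held out by chronic peled alone, at 16.7, with control peled at 15.0 and acute peled at 15.4. Control omul was listed at 0 for this gene, with 4.02 after acute and 2.23 after chronic warming.

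As deposited, the widest gaps belonged to genes of moderate value. TRINITY_DN25045_c1_g2, with a gap of 2.23, stood at 27.3 in nature omul and 24.9 in nature peled. Its aquaculture values in omul were 3.82 (control), 2.35 (acute) and 1.88 (chronic), and those in peled were 3.60, 4.51 and 4.54. TRINITY_DN34376_c1_g1, with a gap of 2.19, was at 52.5 and 49.7 in nature omul and nature peled. Its omul values were 9.56 (control), 10.1 (acute) and 5.31 (chronic), and its peled values 8.66, 8.86 and 2.58. For both genes the nature libraries were nearly alike, and the lowest omul library was the chronic one.

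TRINITY_DN17927_c1_g3 had the flattest profile of the 4 widest gaps, with 11.2 in nature omul, 12.0 in nature peled and 1.08 to 1.76 in all 6 aquaculture-reared libraries, a gap of 2.14. TRINITY_DN47610_c0_g1 was at 20.9 in nature omul and 24.0 in nature peled. Its omul values were 4.12 (control), 3.33 (acute) and 1.45 (chronic), whereas control peled stood at 0.059, acute peled at 0.082 and chronic peled was listed at 0. Its nature values were thus close in the 2 species while its aquaculture values were not. Scaled to a common summed value, the gaps of these 4 genes were 0.85, 0.91, 1.14 and 1.34, in the order given. The widest gap of a member was then 1.70, that of TRINITY_DN33809_c0_g4.

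Over the 66 members, values in nature omul ran from 3.55 to 649.8 with a median of 22.4, and in nature peled from 10.8 to 1606 with a median of 32.1. The medians of aquaculture-reared omul were 5.90 (control), 5.74 (acute) and 5.27 (chronic), and those of peled 3.04, 3.06 and 3.88. Among all listed genes of its library the median member ranked at the 71.7th percentile in nature omul and the 78.3rd in nature peled, and between the 30.6th and the 39.9th in the aquaculture-reared libraries. A value of 10 or above in both nature libraries was reached by 57 members, and 36 were below 10 in all 6 aquaculture-reared libraries. The rule excludes a value of 0 in nature, and 5 members were listed at 0 in at least 1 aquaculture-reared library. By single aquaculture-reared library 0 to 2 members were listed at 0, against 24 to 74 of the 2184 listed genes.

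**Figure D2:**
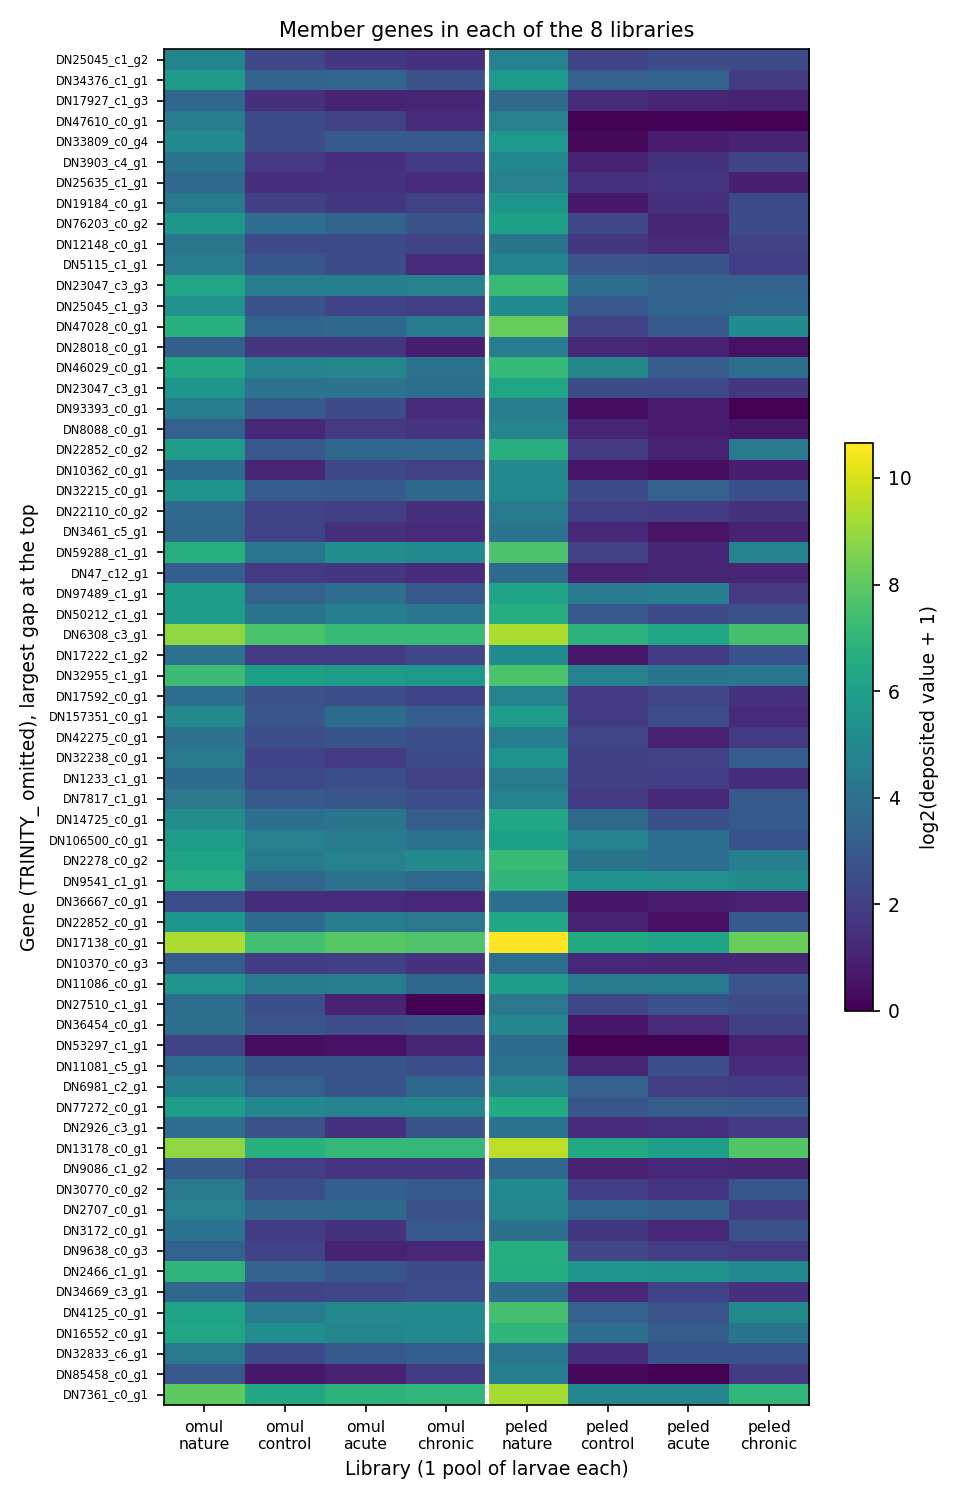
Each row is a member gene, ordered by gap, and each column a library of 1 pool of larvae. Colour gives log2(deposited value + 1). The nature columns are brighter than the other 3 columns of their species in every row, and the 4 brightest rows stand at 259 or more in both nature libraries.

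Together the members held 2.62% of the summed value of listed genes in nature omul and 3.14% in nature peled, against 3.02% of the listed genes by number. In aquaculture-reared omul they held 1.00% (control), 1.04% (acute) and 0.998% (chronic), and in peled 0.896%, 0.744% and 1.20%. No member was among the 10 highest genes of any library. The 5 members with the highest mean in nature made up much of these shares, and without them the shares were 1.35% in nature omul, 1.43% in nature peled and 0.373% to 0.501% in aquaculture.

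**Figure D3:**
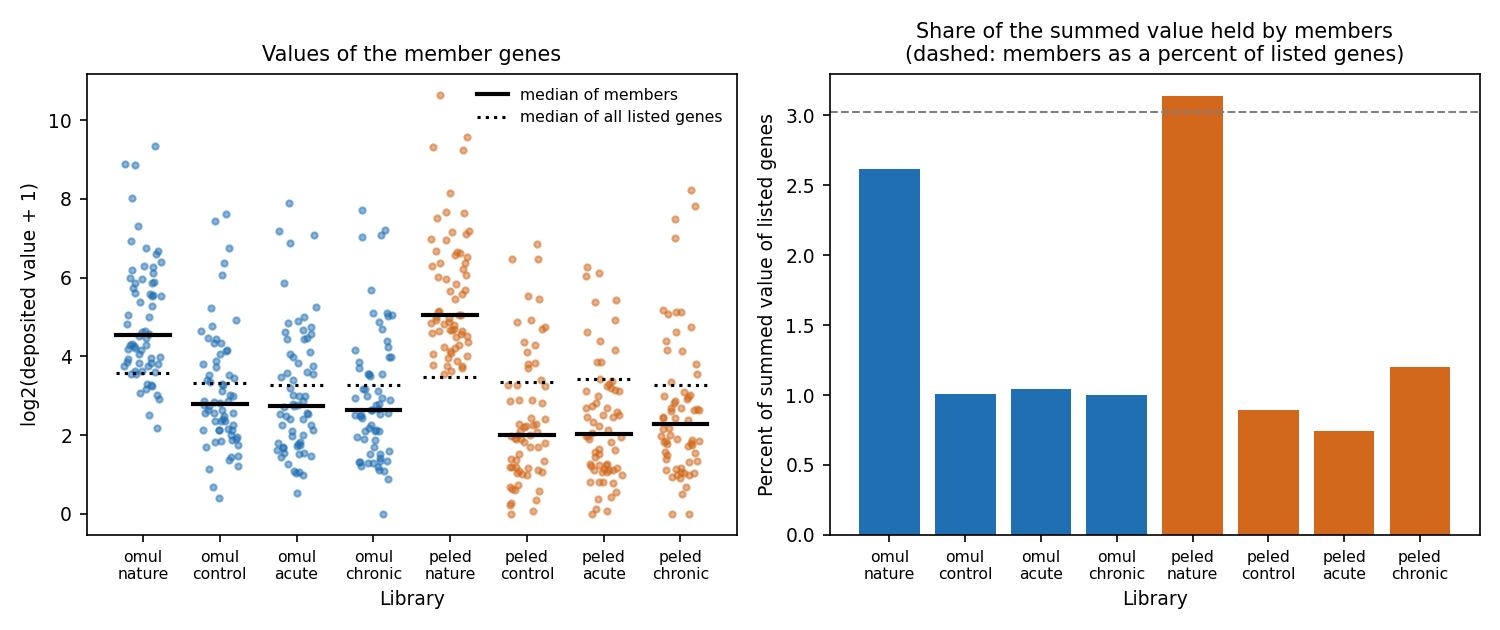
The left panel shows the 66 members in each library on the log2(deposited value + 1) scale, with the solid line at their median and the dotted line at the median of all listed genes. The right panel shows the percent of the summed value of listed genes held by the members, 2.62% and 3.14% in nature and 0.744% to 1.20% in aquaculture.

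TRINITY_DN17138_c0_g1 was the member with the highest nature values, at 649.8 in omul and 1606 in peled. Its other omul values were 171 (control), 239 (acute) and 209 (chronic), and its other peled values 88.3, 68.4 and 298. TRINITY_DN6308_c3_g1 was at 475 in nature omul and 640.4 in nature peled. In omul it had 195 (control), 146 (acute) and 147 (chronic), and in peled 115, 76.3 and 179. In both genes the chronic library was the highest of the aquaculture-reared peled libraries.

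TRINITY_DN13178_c0_g1 was at 467 in nature omul and 765 in nature peled. Aquaculture-reared omul had 106 (control), 134 (acute) and 135 (chronic), and peled 88.2, 64.5 and 224. TRINITY_DN7361_c0_g1 was at 259 and 603 in nature omul and nature peled. Its aquaculture-reared values were 82.5 (control), 117 (acute) and 129 (chronic) in omul, with 29.5, 29.4 and 128 for peled. The order of the peled libraries was thus alike in all 4 of these members, with chronic the highest of the aquaculture-reared ones. That nature lay above them is fixed by the rule. Over all 66 members chronic peled was above control peled in 37 and above acute peled in 36. Over the 2184 listed genes these were 1117 and 1112, so the order of these 4 is not a trait of the members as a set.

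The margin of the members was narrower in omul. Nature omul exceeded the highest aquaculture-reared omul library by a median of 1.33 (log2), and nature peled exceeded the highest aquaculture-reared peled library by 2.42. The lower nature library was omul in 57 of the 66 members, and the highest aquaculture-reared library was an omul library in 48. By single library the highest was control omul in 18 members, acute omul in 18, chronic omul in 12, chronic peled in 10, control peled in 5 and acute peled in 3. These counts describe how the rule was met and are not a test of species. Over the 2184 listed genes nature peled was above nature omul in 944. The library with the highest aquaculture value was not counted over all listed genes. Scaled to a common summed value, 37 of the 66 members were higher in nature peled.

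Species were compared within the aquaculture-reared libraries, which leaves the nature libraries out. Of the 65 members tested, 19 were lower in peled than in omul and 4 were higher (limma over 6 libraries with species and state additive, 3 libraries per species, adjusted p below 0.05 over 2180 genes). Over all genes tested, 84.5% were called in either direction, 45.8% lower and 38.7% higher in peled, against 35.4% of the members. The median difference, peled minus omul, was -0.60 (log2) over the members and -0.50 over all genes tested, and the median absolute difference was 0.64 and 2.10. Every listed gene varied by at least 2.25 (log2) over the 8 libraries. Over the 6 aquaculture-reared libraries alone, 14 of the 66 members (21.2%) varied by that much. The lower quartile of this range was 2.46 over all listed genes, so most of them varied by that much too. The rule caps the aquaculture values of the members, and its part in the lower share of species calls was not tested.

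The members with the largest differences are given with all their libraries. TRINITY_DN22852_c0_g1 had omul values of 12.4 (control), 20.9 (acute) and 17.7 (chronic) and peled values of 1.10, 0.35 and 6.90. All omul libraries lay above all peled libraries (limma log2 difference -2.65, SE 0.50, adjusted p = 0.00149). In nature the gene was at 47.0 in omul and 81.4 in peled, the other way round. TRINITY_DN59288_c1_g1 had omul values of 17.0, 36.9 and 33.1 and peled values of 3.27, 1.18 and 25.9 for the same states. Omul was higher in each state (limma log2 difference -2.18, SE 0.63, adjusted p = 0.0128), but the groups overlapped, with chronic peled above control omul. In nature this gene stood at 101 in omul and 201 in peled.

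On the other side, TRINITY_DN2466_c1_g1 had omul values of 9.14 (control), 6.30 (acute) and 4.62 (chronic) and peled values of 45.4, 42.2 and 33.7. All peled libraries lay above all omul libraries (limma log2 difference 2.46, SE 0.31, adjusted p = 0.000203). In nature its values were 121 for omul and 94.3 for peled, so that nature exceeded the own aquaculture mean by 4.03 (log2) in omul and by 1.21 in peled. TRINITY_DN9541_c1_g1 likewise had omul values of 10.6, 14.9 and 12.0, all below its peled values of 42.7, 40.8 and 34.3 (limma log2 difference 1.58, SE 0.33, adjusted p = 0.00238). Nature omul stood at 96.1 and nature peled at 126.

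In nature the direction between species was the reverse of that in aquaculture for many members. Nature peled was above nature omul in 57 of 66 members, against 944 of 2184 listed genes. The median difference of the members was 0.66 (log2), where the median of all listed genes was -0.14. By at least 1, 17 members were higher in nature peled (25.8%, against 8.38% of listed genes) and 0 were lower (against 15.6% of listed genes). In the aquaculture-reared states the member medians, peled minus omul, were -0.70 in the control, -0.76 after acute and -0.36 after chronic warming. Higher in omul in all 3 of these states were 41 members (62.1%, against 48.1% of listed genes), 4 were higher in peled in all 3 (6.06%, against 41.4%) and 21 were mixed. Of those 41 members, 37 were higher in peled in nature (90.2%, against 86.4% of all 66 members). Of the 19 called lower in peled, 18 were higher in nature peled. The rule used the nature and aquaculture values, so these counts describe the members and are no test of species. The share of all listed genes that reverse was not counted. The reversal between nature and aquaculture depends on how libraries are scaled. After scaling to a common median 61 of 66 members were higher in nature peled and 42 were higher in omul in all 3 aquaculture-reared states. After scaling to a common summed value these were 37 and 23. The difference between the states was not tested, since nature has 1 library per species.

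**Figure D4:**
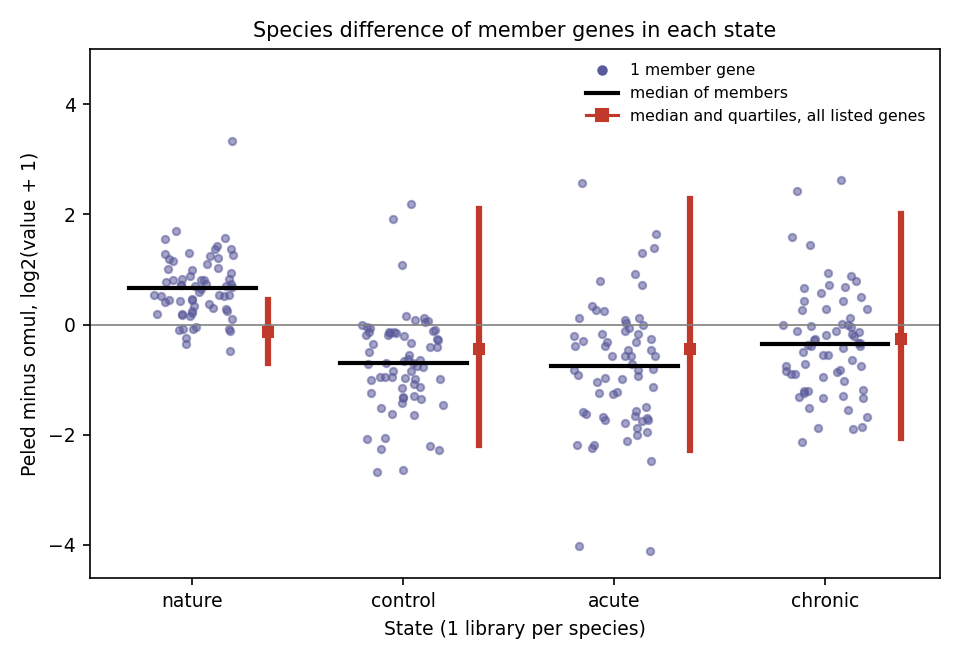
Points give peled minus omul on the log2(value + 1) scale for each member in each state, with black lines at the member medians of 0.66, -0.70, -0.76 and -0.36. Red squares and bars give the median and quartiles of all listed genes, whose spread between species was wide in the 3 aquaculture-reared states and narrow in nature.

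The widest species difference in nature was that of TRINITY_DN9638_c0_g3, at 8.88 in omul and 99.3 in peled, or 3.34 (log2). Its omul values in aquaculture were 3.40 (control), 1.09 (acute) and 1.31 (chronic), and its peled values 3.81, 2.95 and 2.42. Nature peled alone stood far above the rest. TRINITY_DN85458_c0_g1 was at 6.51 in nature omul and 23.2 in nature peled, with 0.60 (control), 0.99 (acute) and 2.73 (chronic) in omul. Its peled values were 0.21 in the control and 2.66 after chronic warming, and it was listed at 0 in acute peled. Higher in nature omul were TRINITY_DN32215_c0_g1, at 45.0 against 31.9, and TRINITY_DN2466_c1_g1, at 121 against 94.3. As single libraries these pairs have no replicate check.

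Across the 66 members, log2 values of nature omul and nature peled correlated at r = 0.93 (Spearman 0.88), close to 0.93 (Spearman 0.89) over all listed genes. Between the control libraries of the species r was 0.85 (Spearman 0.81) over the members and 0.17 (Spearman -0.01) over all listed genes. The acute libraries gave 0.73 and 0.14, and the chronic libraries 0.85 and 0.25. These are correlations across genes of single libraries, and genes are not independent replicates. The rule bounds the aquaculture values of a member in both species, and its part in these correlations was not tested.

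After acute warming 0 of the 65 members tested passed the test against the unheated control (limma over 6 libraries, 2 libraries per state, adjusted p below 0.05), where 0.734% of all genes tested did. At an unadjusted p below 0.05 there was 1 member, or 1.54% of the members against 8.62% of all genes tested. The fitted differences ran from -0.93 to 0.93 (log2) with a median of 0.00, against -0.06 over all genes tested. By single libraries 5 members in omul (7.58%, against 16.7% of listed genes) and 8 in peled (12.1%, against 16.2%) lay at least 1 from the control. No member did so in both species in the same direction, where 2.70% of listed genes did upward and 1.42% downward. The rule caps the acute and control values of the members, and its part in these lower shares was not tested.

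The members with the largest shared acute differences lay below both nature libraries in every state, which the rule fixes. TRINITY_DN32833_c6_g1 had 4.28 in control and 6.91 in acute omul, with 1.63 and 5.42 for peled (limma log2 difference 0.93, SE 0.36, adjusted p = 0.485), while nature stood at 18.5 for omul and 17.4 for peled. TRINITY_DN157351_c0_g1 was at 6.04 and 12.6 in these omul libraries and at 2.57 and 4.75 in those of peled (limma log2 difference 0.82, SE 0.37, adjusted p = 0.624). On the lower side, TRINITY_DN6981_c2_g1 had 8.79 in control and 5.73 in acute omul, and 8.68 and 2.85 in the peled pair (limma log2 difference -0.93, SE 0.45, adjusted p = 0.624). TRINITY_DN76203_c0_g2 had 12.9 and 9.53 in the omul pair, and 3.84 and 1.23 in the peled pair (limma log2 difference -0.76, SE 0.49, adjusted p = 0.766). None of these 4 differences passed the test.

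After chronic warming 0 of the 65 members passed either (limma over 6 libraries, adjusted p below 0.05), where 0.138% of all genes tested did, but 13 had an unadjusted p below 0.05. That is 20.0% of the members and 15.4% of all genes tested. The fitted differences were wider than after acute warming, from -1.47 to 2.01 (log2) with a median of -0.07. By single libraries 7 members in omul lay at least 1 from the control (10.6%, against 18.8% of listed genes) and 23 in peled (34.8%, against 30.0%). Of those in peled 16 were higher (24.2%, against 16.8%) and 7 lower (10.6%, against 13.2%). The cap that the rule sets holds for the chronic values too, and its part in these shares was not tested.

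The 16 members higher in chronic peled were read in omul, as a description of a set picked from its values. Their peled medians were 2.71 (control), 2.38 (acute), 7.24 (chronic) and 64.1 (nature). In omul they were 6.72, 8.79, 9.19 and 32.9 in the same order. Chronic omul was above control omul in 14 of the 16, with a median difference of 0.45 (log2), and by at least 1 in 1 of them, TRINITY_DN85458_c0_g1. Over all 66 members it was above control omul in 30 (45.5%), and over the 2184 listed genes in 981 (44.9%). These shares are not limited to genes higher in chronic peled, for which the sign in omul was not counted. Of the 367 listed genes at least 1 higher in chronic peled, 62 were at least 1 higher in chronic omul too. The set of 16 holds TRINITY_DN22852_c0_g1 and TRINITY_DN22852_c0_g2, which share a component. Of the 7 members at 100 or above in both nature libraries 5 belong to this set. The same share over all listed genes this high in nature was not counted, so no link with level is drawn. In all 16 the chronic values lay below those in nature, as the rule requires. Chronic and control peled are single libraries, and every one of these differences uses the same control library.

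TRINITY_DN47028_c0_g1 had the largest chronic difference. Its omul values were 9.89 (control), 11.02 (acute) and 19.9 (chronic), and its peled values 3.28, 7.04 and 35.3. Both chronic libraries were the highest aquaculture-reared ones of their species (limma log2 difference from the control 2.01, SE 0.53, adjusted p = 0.182). Nature stood at 106 in omul and 285 in peled. TRINITY_DN59288_c1_g1, whose values are given above, differed by 1.79 (log2, SE 0.78, limma adjusted p = 0.327), with 0.92 in omul and 2.65 in peled. On the lower side TRINITY_DN97489_c1_g1 had omul values of 8.66, 13.2 and 6.69 and peled values of 19.5, 23.5 and 2.38 (limma log2 difference -1.47, SE 0.57, adjusted p = 0.294). TRINITY_DN106500_c0_g1 had 24.2, 20.7 and 14.7 in omul, with 24.9, 13.5 and 5.33 for peled (limma log2 difference -1.36, SE 0.44, adjusted p = 0.239).

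The fitted chronic differences depended on which chronic libraries were in the fit. The first library left out was chronic omul. Without that library the contrast rests on chronic peled alone, its error on the control and acute libraries of both species with 1 residual degree of freedom, and 8 members were called, 6 higher and 2 lower. That is 12.3% of the members tested, where 6.38% of all genes tested were called, 139 of 2180. The prior degrees of freedom of limma, 5.55 over the 6 libraries, became infinite in this fit, so that all genes took their error from the shared trend. That error holds no spread between chronic pools, so only the differences of the members singled out by this fit are given. They were 3.17 (log2) for TRINITY_DN59288_c1_g1, 2.89 for TRINITY_DN47028_c0_g1, 2.87 for TRINITY_DN22852_c0_g2 and 2.25 for TRINITY_DN22852_c0_g1. TRINITY_DN7361_c0_g1 had 2.20 and TRINITY_DN4125_c0_g1 had 2.10. On the lower side TRINITY_DN97489_c1_g1 had -2.53 and TRINITY_DN106500_c0_g1 had -1.88. Without chronic peled the prior was infinite too and 1 member was called (1.54%, against 3.07% of all genes tested), TRINITY_DN27510_c1_g1, which was listed at 0 in chronic omul and at 4.90 in control omul, with -2.08 (log2, SE 0.65, limma adjusted p = 0.0447). These genes were singled out after their values had been seen. Whether the species respond differently was not tested, since each has 1 chronic library.

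**Figure D5:**
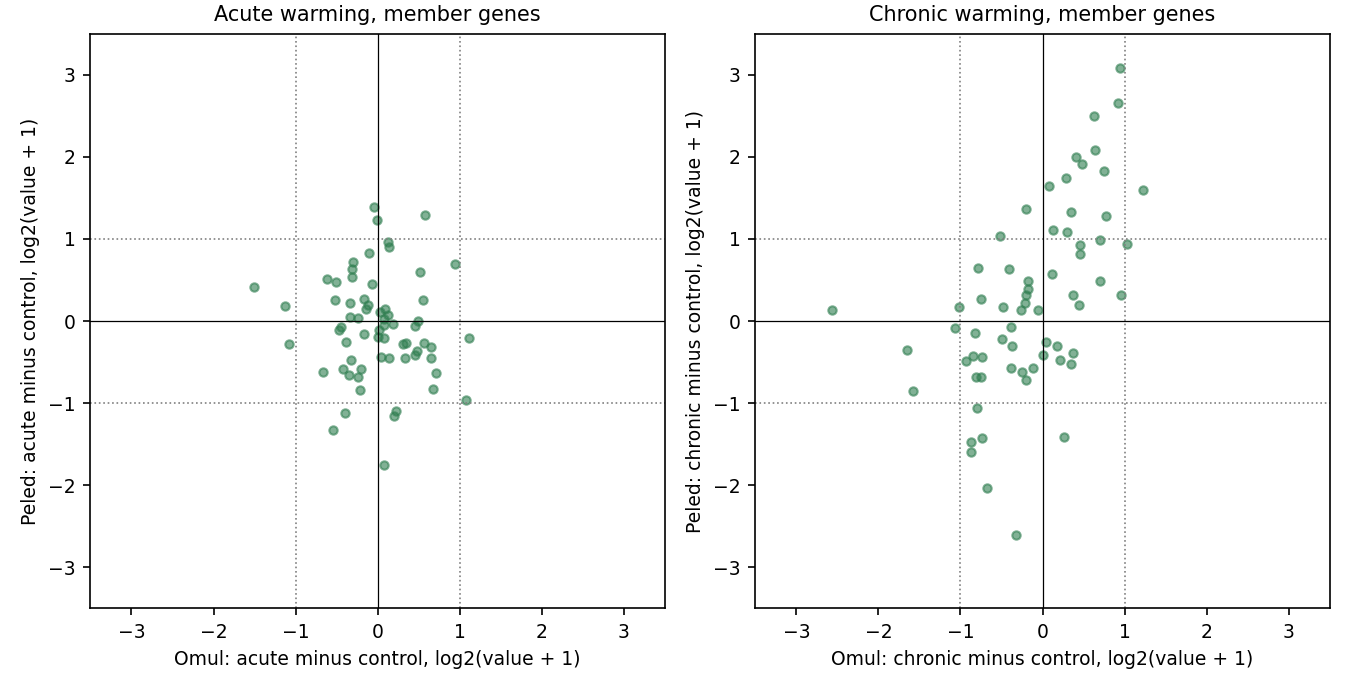
Each point is a member gene, with its difference from the unheated control in omul on the x axis and in peled on the y axis, on the log2(value + 1) scale. Dotted lines mark a difference of 1. After acute warming no point lies beyond 1 in both species. After chronic warming 1 does, TRINITY_DN85458_c0_g1 (1.52% of members, against 2.84% of listed genes at least 1 higher in both species). Peled values reach 3.08 and -2.60 after chronic warming.

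Chronic and acute warming were compared without the control libraries in the difference, and 0 of 65 members passed (limma over 6 libraries, adjusted p below 0.05), where 0.872% of all genes tested did. At an unadjusted p below 0.05 there were 10 members, or 15.4% of the members against 12.5% of all genes tested. Both states lie under the cap of the rule, whose part in these shares was not tested. TRINITY_DN47028_c0_g1 differed by 1.49 (log2, SE 0.53, limma adjusted p = 0.289) and TRINITY_DN85458_c0_g1 by 1.39 (SE 0.47, limma adjusted p = 0.275). TRINITY_DN97489_c1_g1 had -1.87 (SE 0.57, limma adjusted p = 0.231) and TRINITY_DN11086_c0_g1, with 21.0 in acute and 10.8 in chronic omul, and 20.0 and 6.02 for peled, had -1.24 (SE 0.39, limma adjusted p = 0.241). In peled 15 members were at least 1 higher after chronic than after acute warming (22.7%, against 16.0% of listed genes), and in omul 2 were (3.03%, against 6.46%). TRINITY_DN3172_c0_g1 was the 1 member at least 1 higher after chronic than after acute warming in both species (1.52%, against 2.52% of listed genes). It was named after its values had been seen. Its omul values were 1.93 (acute), 6.49 (chronic), 2.66 (control) and 15.6 (nature), and its peled values 1.36, 5.27, 2.28 and 14.4 in the same order (limma log2 difference between chronic and acute 1.38, SE 0.36, adjusted p = 0.164). Without chronic omul 7 members were called, 6 higher and 1 lower, or 10.8% of the members tested against 7.75% of all genes tested, again with an infinite prior. All 7 are among the 8 named for chronic against control, and both sets rest on the same chronic peled library.

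Another listed gene shared the assembly component of 10 of the 66 members (15.2%), against 205 of the 2184 listed genes (9.39%). The 66 members fell into 63 components, 3 of which held a pair of members. In the pair TRINITY_DN22852_c0_g1 and TRINITY_DN22852_c0_g2, the latter stood at 57.6 and 102 in nature omul and nature peled, with omul values of 6.32 (control), 10.7 (acute) and 10.3 (chronic) and peled values of 2.71, 1.09 and 19.9. Both genes were thus lowest of all libraries in acute peled and highest of the aquaculture-reared peled libraries in chronic peled. The pair TRINITY_DN23047_c3_g1 and TRINITY_DN23047_c3_g3 stood at 47.5 and 77.7 in nature omul and at 77.2 and 143 in nature peled. Both were lower in peled than in omul in aquaculture, with log2 differences of -1.83 (SE 0.29, limma adjusted p = 0.000606) and -1.07 (SE 0.32, limma adjusted p = 0.0144). TRINITY_DN25045_c1_g3, the partner of the gene with the widest gap, was at 40.4 in nature omul, 33.8 in nature peled, 2.88 to 5.71 in aquaculture-reared omul and 6.48 to 10.7 in aquaculture-reared peled. It was higher in peled than in omul in aquaculture (log2 difference 1.01, SE 0.36, limma adjusted p = 0.0280).

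The same components held 5 listed genes that were not members, and 3 of them are described here. TRINITY_DN10370_c0_g1 was at 25.9 in nature omul and 28.0 in nature peled, but at 12.1 to 13.8 in aquaculture-reared peled and 2.24 to 4.12 in aquaculture-reared omul. The member of that component, TRINITY_DN10370_c0_g3, was at 7.46 and 12.9 in nature and at 1.18 to 2.93 in aquaculture. TRINITY_DN16552_c0_g2 and TRINITY_DN16552_c0_g3 reached 254 and 658 in nature peled and 132 and 341 in nature omul, and missed the gap through omul, where they stood at 74.9 to 81.7 and 208 to 233 in aquaculture. The member TRINITY_DN16552_c0_g1 was at 76.3 in nature omul and 28.6 to 36.8 in aquaculture-reared omul. Since reads can be split between genes of a component, the values of such genes are uncertain one by one. Summed over components before the rule was applied, 61 components met it, of which 60 were among the 63.

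By the same rule applied to the other states, at least 1 higher in both libraries of a state than in the 6 others, 0 genes were found for the control, 17 for acute and 3 for chronic warming, against 66 for nature. The 88 genes lower in nature by the opposite rule are the closest set in kind. The counts are not alike in what they demand of a gene. Between the control libraries 792 listed genes were at least 1 higher in peled and 960 at least 1 lower, against 183 and 340 in nature. A gene far apart between species in all aquaculture-reared states can hardly stand highest in both libraries of 1 such state. The genes held out in this way were not counted, and their part in the counts was not tested. The 66 fell to 29 and 15 under the 2 scalings, which were not applied to the other states. These counts describe the list as deposited, whose rule of selection is not stated.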

How the data were processed

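Poly(A) RNA of whole larvae was sequenced in 8 libraries, each a pool, per the labels' protocols. The authors deposited a normalized expression signal per assembly gene, and its unit is named neither by the labels nor by the file headers. The submitters' processing notes name Trimmomatic 0.36 and edgeR 4.0.3 without a role. No label or header names an assembler or quantifier, beyond the Trinity form of the identifiers. Depth is unknown, so no counting interval is given.

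Groups were taken from the sample titles. Members were selected on log2(value + 1). Tests were made with limma 3.58.1 under R 4.3.3 on log2(value + 1) of the 6 aquaculture-reared libraries, with an intensity trend, with species and state as additive terms (2 residual and 5.55 prior degrees of freedom), on 2180 genes with a mean of at least 1, two-sided, with Benjamini-Hochberg adjustment over all of them and a call at 0.05. The error comes from how far both species depart from a common difference between states, so p-values measure the spread of these pools, not of replicate pools. Log2 differences understate changes of low values. The procedure was run on simulated data with independent errors, no species difference and an equal acute change in both species. It was not tried on simulated species that respond differently. The members, comparisons and naming rule were chosen with earlier results of these data known. Genes named were the 4 widest gaps, the 4 highest in nature, those nearest the edge of the rule, the largest shared differences of each contrast (2 per direction) and genes sharing components. Alternatives were other pseudocounts, scalings, filters, gaps and the loss of single libraries. Python 3.11.15 drew the figures.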

Additional observations from a re-analysis of the deposited data

Results flagged for a closer look

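Some medians over the 66 members pointed in opposite directions in groups compared under the same contrast. These differences were not tested, since each value rests on a single library per group. Peled minus omul had a member median of 0.66 (log2) in nature, but -0.70 in the control, -0.76 after acute and -0.36 after chronic warming. Chronic minus control had a median of -0.17 in omul and 0.17 in peled, and chronic minus acute of -0.17 in omul and 0.082 in peled. Over all listed genes the chronic minus control medians were -0.06 in omul and 0.03 in peled. The opposite signs of that contrast are thus not particular to the members. The chronic minus acute medians over all listed genes were 0.0 in omul and 0.022 in peled. Acute minus control had a median of 0.010 in omul and -0.088 in peled, against -0.05 and -0.06 over all listed genes. The medians of the warming contrasts are small beside the spread of the members. No group held enough libraries for a check for a library far from its fellows.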

How the results depend on the processing

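The number of members followed the settings of the rule. It was 73 with a pseudocount of 0.1 and 61 components after summing, but 32 with a pseudocount of 5, 29 with libraries scaled to a common median, 15 scaled to a common summed value, 35 with a mean value of at least 10, 410 with a gap of 0 and 6 with a gap of 2. Leaving out 1 library gave 68 to 250 members, and these sets contain all 66 by construction. The 250 came without nature omul and 90 without nature peled. Under the alternatives that kept all 6 libraries, 0 members were called after acute or chronic warming or between them. Leaving out a library gave 0 for acute warming, 0 to 8 for chronic against control and 0 to 7 for chronic against acute. For the species within aquaculture, 19 to 23 members were called under the other pseudocounts, the scaling to a common median, the filter and the trend. With 1 library left out 14 to 26 were called (14 without acute omul and 15 without acute peled). No fit was made after scaling to a common summed value. Under that scaling 23 members in place of 41 were higher in omul in all 3 aquaculture-reared states. Those higher in peled in all 3 were 10 in place of 4. With all 8 libraries in the fit 0 members were called for species, where the nature pair enters the difference and the residual SD was 0.97 in place of 0.38. Species calls over all genes tested were not counted under these alternatives, so the counts are not read as a result about the members. In the main fit 84.5% of all genes tested were called for species, against 35.4% of the members. The share of the summed value without the 10 highest genes of each library was 3.87% in nature omul, 1.48%, 1.64% and 1.44% in control, acute and chronic omul, 4.89% in nature peled and 1.16%, 0.926% and 1.60% in control, acute and chronic peled. Without the 5 highest members it was 1.35% in nature omul, 0.501%, 0.500% and 0.45% in omul, 1.43% in nature peled and 0.494%, 0.433% and 0.373% in peled, in the same order. The cause of these shifts was not tested beyond what each setting changes by construction. The check of scaled libraries with members kept was chosen after seeing the data. No paired analysis was possible because the labels give no replicate numbers, and species, which the states share, is already a term of every fit. Depth is unknown, so low values carry an unstated error.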
